A study of Rattus norvegicus with 10 samples.

Results

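The conjugating enzymes of phase 2 metabolism were examined in distal colon epithelium of rats fed a bile acid. The set held every gene of the profiling table whose symbol begins with Gsta, Gstk, Gstm, Gsto, Gstp, Gsts, Gstt, Gstz, Mgst, Ugt or Sult followed by a digit, with Ugt8 left out because its product galactosylceramide is a membrane lipid. It took 56 of 23422 genes: 26 glutathione S-transferases, counting the microsomal Mgst genes, 17 UDP-glucuronosyltransferases and 13 cytosolic sulfotransferases. Of the 56, 38 had at least 1 read and 30 had enough reads to be tested.

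RNA came from male Wistar Munich rats kept singly in metabolic cages. Of 12 rats, 6 received chow holding 1% w/w sodium cholate, the salt of a primary bile acid, for 10 days that followed 3 days of getting used to the cages, and the other 6 received chow without it. Epithelial cells were released with EDTA from the most distal part of the colon. Libraries were made from those 5 rats of each diet whose RNA was most concentrated, a choice that was not random, and gave 5 control libraries (rats 1, 2, 5, 6 and 9) and 5 cholate libraries (rats 3, 4, 7, 8 and 11), with each rat as 1 replicate.

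Phase 2 enzymes attach a polar group to a drug, plant compound, hormone or bile acid so that pumps can carry it out of the cell. Glutathione S-transferases add the tripeptide glutathione to electrophiles, UDP-glucuronosyltransferases add glucuronic acid from UDP-glucuronic acid, and sulfotransferases add sulfate from the donor PAPS. The gut lining carries all 3 classes and is exposed to bile acids, of which some are glucuronidated or sulfated in liver and gut.

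Levels are given as CPM, counts scaled to a common library size, after TMM scaling, a correction for library composition, or, where genes are compared with each other, as CPM per kilobase of coding sequence (FPKM). A log2 fold change is the level on cholate over that in controls, its standard error (SE) is approximate, and each adjusted p comes from the edgeR quasi-likelihood test over 12385 genes. Calls needed both an adjusted p under 0.01 and a fold over 2, the authors' own limits. "Rose" and "fell" are used at an adjusted p under 0.05 at any fold. In bulk RNA, fewer cells of a type and less RNA per cell cannot be told apart.

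Library totals ran from 14337356 counts in cholate rat 11 to 45285762 in cholate rat 4. The epithelial markers were all detected and their 10 genes summed to between 17251 and 23538 CPM in controls and between 25913 and 36073 CPM on cholate. Of 6 hepatocyte markers, Alb and Fgb were at 0 and Ttr, Serpina1 and Apoc3 had 2, 76 and 338 counts, while Apoa1, which gut epithelium also expresses, had 11881; together they summed to between 26.5 and 145.8 CPM in controls and between 9.57 and 116.7 CPM on cholate. Libraries of control rat 9 and cholate rats 8 and 11 stood apart on the leading axis of variation, which held 46.8% of the variance and did not follow diet, and the diets separated on the next axis with 30.6%. Summed goblet cell markers were 24434, 17628 and 26558 CPM in these 3 libraries and between 7306 and 13234 CPM in the other 7. Results are also given without these 3 libraries where that matters.

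The 4 members with the smallest adjusted p were a pair of sulfotransferases that were higher on cholate and a pair of neighbouring mu-class glutathione S-transferases that were lower. Sult2b1, which sulfates cholesterol and related steroids, was called higher, and Gstm7, a mu-class glutathione S-transferase, was called lower. Sult1b1, the most abundant sulfotransferase, and Gstm6l, which lies beside Gstm7, rose and fell likewise but missed the limits of the call. No UDP-glucuronosyltransferase was called.

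Promoters of both called genes are shown because each held 1 of the short motifs searched for, and that of Gstm2, a neighbour of Gstm7 with like levels on both diets, is shown for contrast. Each is 300 bases from RefSeq in build GRCr8, from 250 bases before to 50 bases after the gene start, 5′ to 3′ on the strand of the gene, which is the minus strand for all 3. Capitals mark a match to GCGTG, the core of the xenobiotic response element bound by the aryl hydrocarbon receptor, or to TGACNNNGC, the core of the antioxidant response element bound by NRF2. Both strands were searched. The Sult2b1 promoter lies at chr1:105397695-105397994, that of Gstm7 at chr2:198260270-198260569 and that of Gstm2 at chr2:198316868-198317167.
Sult2b1: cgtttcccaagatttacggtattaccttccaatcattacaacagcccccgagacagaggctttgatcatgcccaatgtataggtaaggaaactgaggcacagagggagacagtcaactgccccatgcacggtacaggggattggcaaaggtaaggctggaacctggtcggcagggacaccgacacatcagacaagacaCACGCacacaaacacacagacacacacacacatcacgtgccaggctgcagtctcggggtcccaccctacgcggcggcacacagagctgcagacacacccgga
Gstm7: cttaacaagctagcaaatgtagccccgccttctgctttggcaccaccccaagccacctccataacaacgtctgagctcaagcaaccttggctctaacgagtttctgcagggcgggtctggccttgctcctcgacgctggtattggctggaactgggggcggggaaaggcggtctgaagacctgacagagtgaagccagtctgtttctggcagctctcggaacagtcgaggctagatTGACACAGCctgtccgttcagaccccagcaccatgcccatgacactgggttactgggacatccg
Gstm2: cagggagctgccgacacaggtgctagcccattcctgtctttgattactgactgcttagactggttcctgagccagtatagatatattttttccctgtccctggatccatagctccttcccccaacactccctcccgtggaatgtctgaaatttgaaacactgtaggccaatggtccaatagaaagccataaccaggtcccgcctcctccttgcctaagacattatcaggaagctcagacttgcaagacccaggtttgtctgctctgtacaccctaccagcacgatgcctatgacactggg
In Sult2b1 the match stood as CACGC, which is GCGTG on the opposite strand, at -52 to -48 from the start. In Gstm7 the match was TGACACAGC on the strand of the gene at -14 to -6, and aligned with the Gstm2 promoter it was identical over 47.8% of the alignment. Such matches are common: GCGTG was in 29.7% of 33469 rat promoters and in 12 of the 48 members with a promoter entry, and TGACNNNGC was in 12.1% of promoters and in 7 of the 48. The inverted repeat with 1 spacer base bound by the farnesoid X receptor and the direct repeat with 3 spacer bases bound by the vitamin D receptor were in 0 of the 48 and in 0.0269% and 0.00598% of all promoters. Gstm6l had no promoter entry, and no binding was measured in this study.

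Reads were found for 23 of 26 glutathione S-transferases (88.5%), 8 of 17 UDP-glucuronosyltransferases (47.1%) and 7 of 13 sulfotransferases (53.8%), against 72.5% of all genes in the table. At least 1000 reads over the 10 libraries were found for 17, 4 and 4 genes of the 3 classes. The genes with 0 reads were Gsta1, Gstm5 and 1 of the 2 genes listed as Gstm3 among the glutathione S-transferases. Among the UDP-glucuronosyltransferases they were Ugt1a9, Ugt1a8, Ugt1a7c, Ugt2a1, Ugt2a3, Ugt2b17, Ugt2b37, Ugt2b35 and Ugt3a2. Among the sulfotransferases they were Sult2a1, Sult2a2, Sult2a6, Sult6b1, Sult1c2 and Sult1d1, of which the Sult2a genes are the hydroxysteroid and bile acid sulfotransferases of rat liver. At 0 reads, a level of up to 3 counts per library remains possible, which is 0.0616 CPM in the deepest library and 0.228 CPM in the shallowest. That bound covers counting error only. Reads that match several genes may not have been counted, so 0 reads need not mean that a gene was silent. Outside the set, Col1a2 had 0 counts while Col1a1 had 469. The shares of genes with reads carry the same limit.

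A further 8 members had reads but too few to be tested. They were Gsta2 with 69 counts over all libraries, Gstt2 with 11, Gstt4 with 4, Gsto2 with 2, Sult4a1 with 35, Sult1c3 and Sult5a1 with 1 each, and Ugt2b7 with 3. This left 19 glutathione S-transferases, 7 UDP-glucuronosyltransferases and 4 sulfotransferases.

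Per length, Mgst2 was the most abundant member at 460.1 ± 80.4 FPKM in controls and 611.9 ± 192.6 on cholate (SD, n = 5 each). Mgst2 is a membrane-bound enzyme that can also make leukotriene C4. By the mean over 10 libraries, which pools the diets, it was followed by Sult1b1 at 448.5 FPKM, Gsto1 at 361.6, Gstm2 at 287.8, Gstp1 at 275.7, Ugt2b10 at 187.5 and Ugt1a6 at 134.2. In controls the range of Mgst2, 394.2 to 594.3 FPKM, lay above that of Sult1b1, 242.7 to 341.5 FPKM, while on cholate they overlapped. Each of the other neighbours down to Ugt1a6 overlapped in controls, where the order was partly another, with Gsto1 at 305.3 FPKM above Sult1b1 at 300.9 and Ugt2b10 at 225.7 above Gstp1. The next member, Gstt3, was at 68.4 FPKM and its control range of 37.5 to 93.5 lay below that of Ugt1a6, which was 103.9 to 143.4. The lowest tested members were Ugt1a5 at 0.594 FPKM, Ugt2b1 at 0.382 and Ugt1a3 at 0.281.

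**Figure D1:**
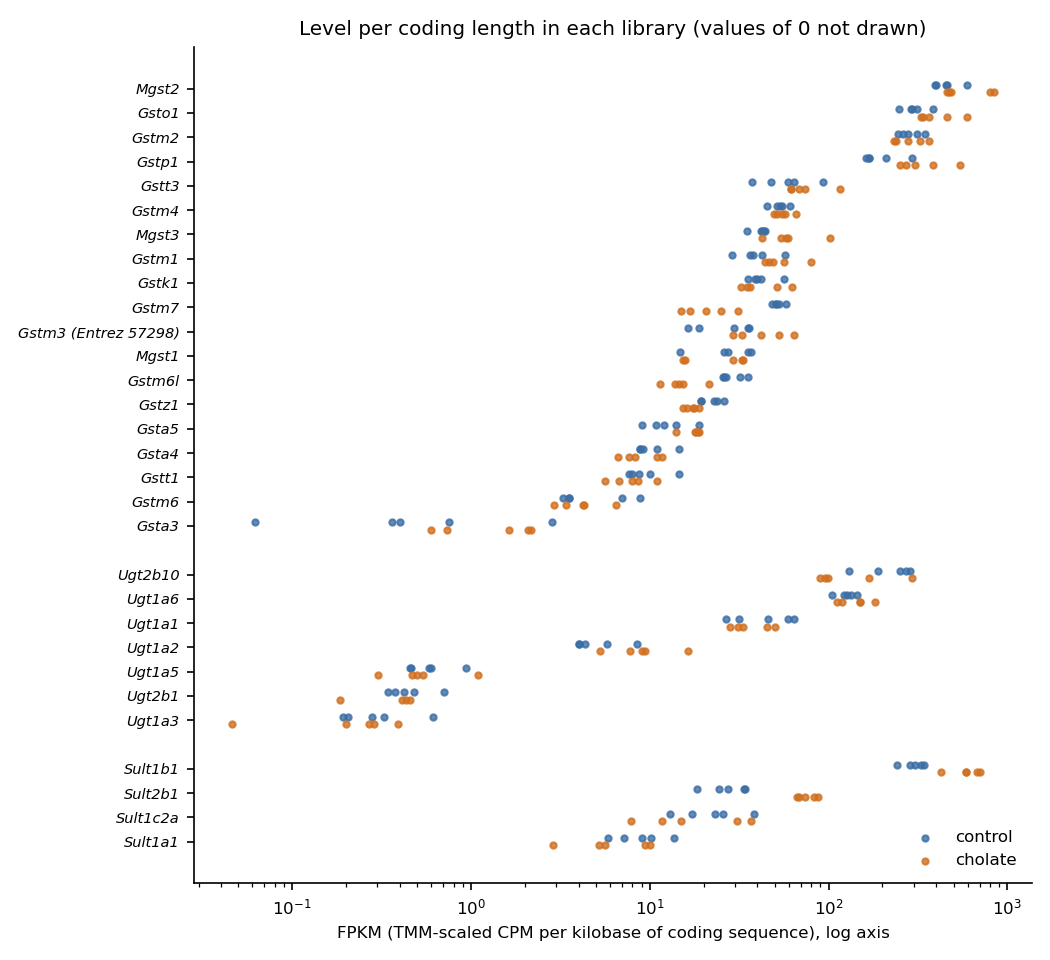
Level of each tested member in FPKM on a log axis, with 1 point per library (blue, control; orange, cholate) and members ordered by mean level within each class; values of 0 are not drawn. Mgst2 is highest at a mean of 536.0 FPKM and Ugt1a3 lowest at 0.281 FPKM.

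Many members lie in gene clusters, and in the 3 clusters described here 1 or 2 genes held most of the counts. In the Gstm cluster on chromosome 2 (210685204 to 210839242, build rn6), 7 of 8 members had reads and Gstm2 held 58.8% of 85999 counts. In the Ugt1a cluster on chromosome 9 (95161157 to 95302822), Ugt1a6 held 72.2% of 85891 counts and with Ugt1a1 95.3%. On chromosome 14 (22107418 to 22826890), where sulfotransferase and Ugt2 genes lie side by side, Sult1b1 held 56.7% of 208765 counts and with Ugt2b10 99.9%. The counts are limited by shared sequence in these clusters. The 8 Ugt1a genes share the same last exons, with 738 coding bases in common, yet 3 of them had 0 counts, so reads in shared exons were not credited to every gene. The treatment of reads matching several Gstm or Ugt2b genes was not given in the sources used here. Values of single genes in these clusters are therefore uncertain. FPKM was taken over all coding bases, of which 46.3% are shared in Ugt1a6. If reads in shared exons were dropped, the FPKM of the Ugt1a genes is too low. The place of these genes in the order of levels is therefore uncertain, as are the summed FPKM and shares of the UDP-glucuronosyltransferases.

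Across all members, 1 of 30 was called higher and 1 of 30 was called lower, while 1.10% of all genes tested were called higher and 2.12% lower, 3.21% in all. At an adjusted p under 0.05 at any fold, 3 rose and 2 fell, 16.7% of the 30, against 6.48% of all genes that rose and 7.28% that fell, 13.8% in all. The 5 cholate values lay all above or all below the 5 control values for 5 members, 16.7%, against 13.1% of all genes. The median log2 fold change was 0.01 over the 30 members and -0.01 over all genes. The share of members that changed was thus close to that of all genes by these counts.

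**Figure D2:**
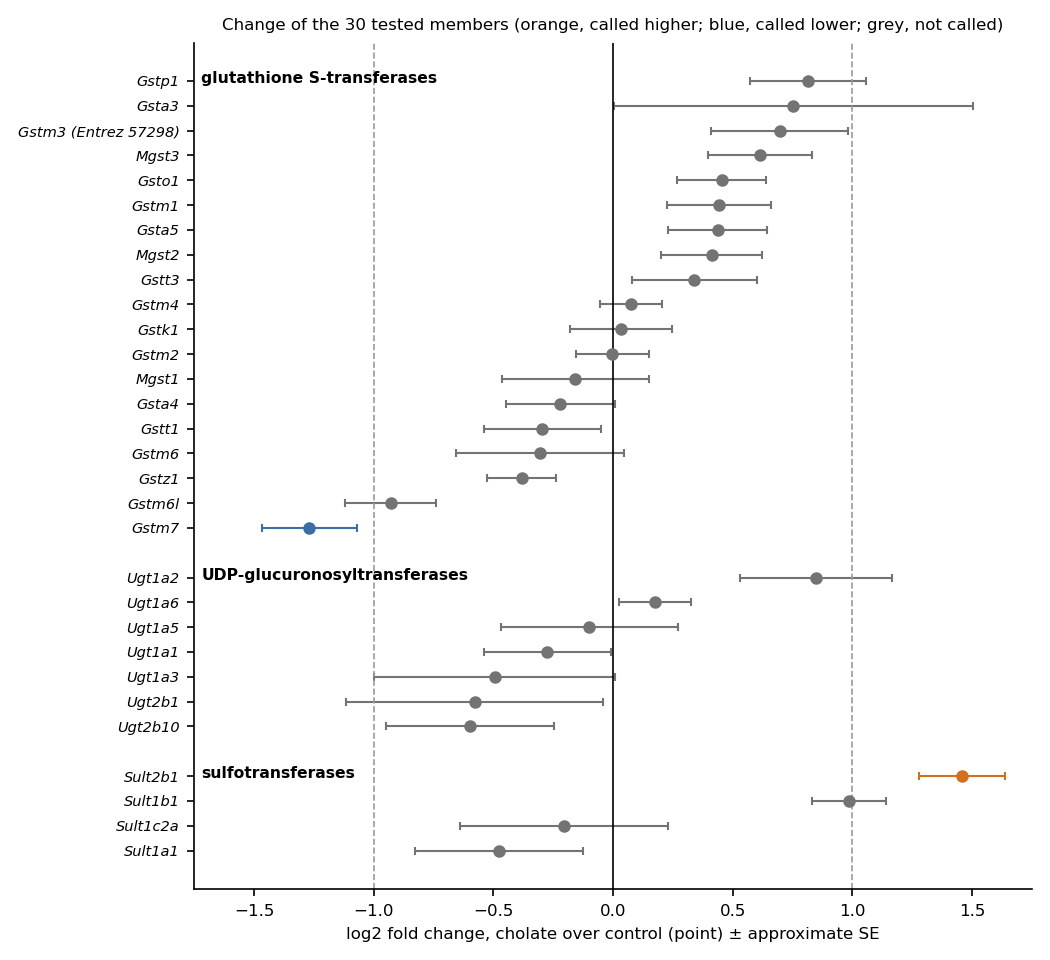
Log2 fold change of cholate over control for the 30 tested members, as points with approximate SE, grouped by class, with dashed lines at a fold of 2. Sult2b1 at 1.46 is the member called higher and Gstm7 at -1.27 the member called lower.

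The sulfotransferases were the class with the fewest tested genes and with no overlap of their summed level. Summed over the class, the level was 300.7, 342.0, 402.8, 376.4 and 385.4 FPKM in control rats 1, 2, 5, 6 and 9, and 552.3, 683.1, 696.7, 767.6 and 794.4 FPKM in cholate rats 3, 4, 7, 8 and 11. Every cholate library was above every control library. Most of the sum was Sult1b1, which made up 83.1% ± 2.28 of it in controls and 84.8% ± 4.83 on cholate (SD, n = 5 each). Of the 4 genes 2 rose, 1 of them past the limit on fold, and the median log2 fold change was 0.39. Of all genes tested 6.48% rose, and their median log2 fold change was -0.01 over all of them.

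Sult2b1 (Entrez 292915, chromosome 1, 101712254 to 101774683, minus strand, build rn6) was at 25.9, 38.5, 47.0, 34.0 and 48.1 CPM in control rats 1, 2, 5, 6 and 9. On cholate it was at 122.3, 116.6, 95.6, 104.4 and 93.1 CPM in rats 3, 4, 7, 8 and 11. The lowest cholate library was well above the highest control, and control rat 9 and cholate rats 8 and 11 did not stand out from the rest of their diets. The mean was 38.7 ± 9.27 CPM in controls and 106.4 ± 12.8 CPM on cholate (SD, n = 5 each), a 2.75-fold difference with a log2 fold change of 1.46 (SE 0.18, edgeR quasi-likelihood adjusted p = 0.0011). When 1 rat was left out, the log2 fold change stayed between 1.34 and 1.54 and the call was kept, but a test against a fold of 2 itself gave an adjusted p of 0.151. Part of its coding sequence, 111 bases, overlaps exons of the antisense gene Lmtk3, which had 9 counts over all libraries.

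Sult1b1 (Entrez 64305, chromosome 14, 22142412 to 22155246, plus strand), which sulfates phenols and thyroid hormone, was at 233.9, 275.1, 329.2, 293.5 and 318.7 CPM in the controls in the same order. On cholate it was at 409.1, 564.5, 565.1, 655.7 and 678.5 CPM. All 5 cholate values were above all 5 control values, with rat 3 nearest to the controls and rats 8 and 11 highest. The mean was 290.1 ± 37.9 CPM in controls and 574.6 ± 106.0 CPM on cholate (SD, n = 5 each), a 1.98-fold difference (log2 fold change 0.99, SE 0.15, edgeR quasi-likelihood adjusted p = 0.0031). The fold was just short of the limit of 2. Leaving out control rat 5, control rat 9 or cholate rat 3 put the log2 fold change at 1.02, 1.00 or 1.09, past that limit. It was lowest, at 0.91, without cholate rat 11. Without control rat 1, 2 or 6 the edgeR adjusted p was 0.01027, 0.01249 or 0.01085, past 0.01. Markers of differentiated colonocytes, 8 genes, also summed higher on cholate, at 7787 to 11499 CPM against 4618 to 5757 CPM in controls. Of the 8, 3 rose and 0 fell, while Muc3, Ceacam1 and Scnn1b had log2 fold changes of 0.01, -0.14 and -0.16. Markers of proliferating cells, 8 genes, likewise summed to 807 to 1256 CPM on cholate and 660 to 804 CPM in controls. The part of these cells in the sulfotransferase result was not tested.

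The other tested sulfotransferases did not pass the test. Sult1c2a was at 17.7 ± 7.33 CPM in controls and 15.3 ± 9.52 CPM on cholate (log2 fold change -0.21, edgeR adjusted p = 0.811). Sult1a1, a phenol sulfotransferase, was at 8.04 ± 2.67 and 5.81 ± 2.63 CPM (log2 fold change -0.48, edgeR adjusted p = 0.416). The diets overlapped for both, and the spread between rats was wide beside the difference of the means.

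**Figure D3:**
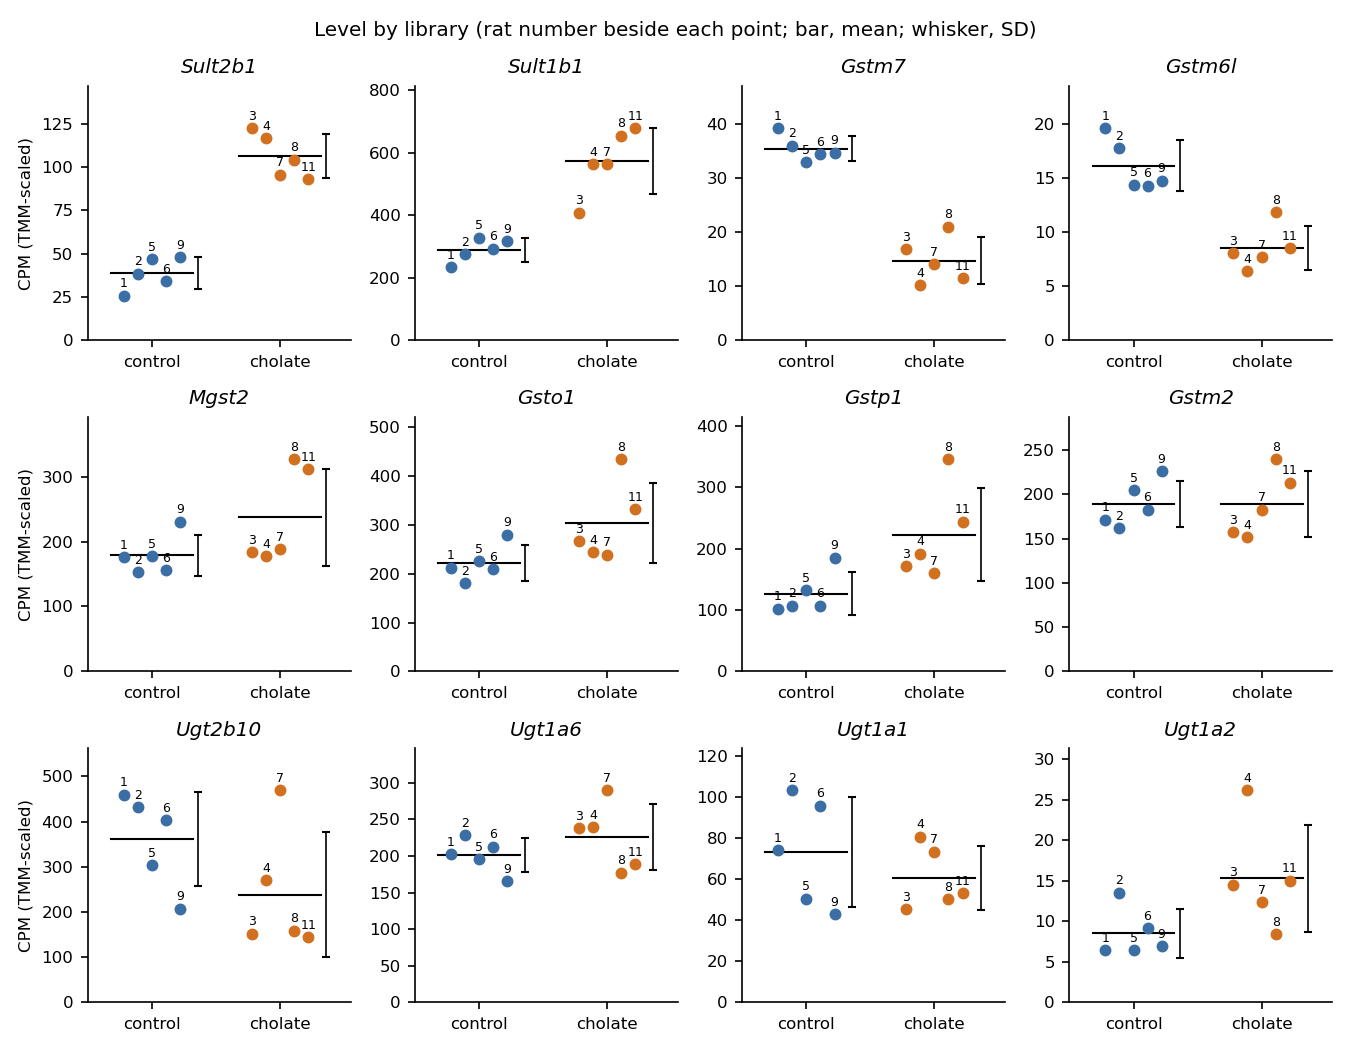
Level in each library, in CPM, of 12 members, with 1 point per rat under its number, a bar at the mean of each diet and a whisker for the SD. Sult2b1 and Sult1b1 are higher and Gstm7 and Gstm6l are lower in all 5 cholate rats than in all 5 controls, and the other 8 genes overlap.

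The glutathione S-transferases held both directions. Of the 19 tested, 1 was called lower and 0 higher, 2 fell and 1 rose at an adjusted p under 0.05, and the median log2 fold change was 0.08. Over all genes tested, 2.12% were called lower and 1.10% higher, and 7.28% fell and 6.48% rose. Of the 3 whose diets did not overlap, Gstm7, Gstm6l and Gstz1, all were lower on cholate.

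Gstm7 (Entrez 81869, chromosome 2, 210720719 to 210726179, minus strand) was at 39.2, 36.0, 32.9, 34.5 and 34.7 CPM in the controls. On cholate it was at 16.9, 10.2, 14.0, 21.0 and 11.5 CPM. The controls lay close together, and the highest cholate library, rat 8, was below every control. The mean was 35.4 ± 2.35 CPM in controls and 14.7 ± 4.37 CPM on cholate (SD, n = 5 each), 0.415 of the control level (log2 fold change -1.27, SE 0.20, edgeR quasi-likelihood adjusted p = 0.0030). The adjusted p rose just past 0.01 when control rat 1, control rat 2 or cholate rat 7 was left out, to 0.0109, 0.0107 and 0.0102, while the direction was kept. A test against a fold of 2 itself gave an adjusted p of 0.773.

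Gstm6l (Entrez 295362, chromosome 2, 210698155 to 210703265, minus strand), the next gene in the cluster, was at 19.6, 17.7, 14.4, 14.3 and 14.7 CPM in the controls. On cholate it was at 8.05, 6.37, 7.71, 11.8 and 8.50 CPM. The diets did not overlap, and rat 8 was again the highest cholate library. The mean was 16.1 ± 2.39 CPM in controls and 8.49 ± 2.03 CPM on cholate (log2 fold change -0.93, SE 0.19, edgeR quasi-likelihood adjusted p = 0.0105), so it fell but missed both limits of the call. Without control rat 9 and cholate rats 8 and 11 it was called, with a log2 fold change of -1.14 and an adjusted p of 0.0023, an alternative added after the data were seen. When 1 rat was left out, the log2 fold change of Gstm6l ran from -1.07 to -0.84 and its edgeR adjusted p from 0.0036 to 0.0333.

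No other gene of the cluster passed the test. Gstm2 (Entrez 24424) was at 171.2, 161.4, 204.7, 182.8 and 226.4 CPM in controls and at 157.2, 151.9, 182.8, 239.4 and 213.3 CPM on cholate. The diets overlapped across nearly their whole range, and the fold was 0.998 (SE 0.15 on the log2 scale, edgeR adjusted p = 0.991). Gstm6, Gstm1, Gstm4 and the copy of Gstm3 that had reads had log2 fold changes of -0.31, 0.44, 0.08 and 0.70, with edgeR adjusted p of 0.622, 0.208, 0.763 and 0.135. The log2 ratio of Gstm7 to Gstm2 CPM within a library was -2.41 ± 0.264 in controls and -3.71 ± 0.380 on cholate (SD, n = 5 each), with no overlap. That of Gstm6l to Gstm2 was -3.55 ± 0.374 and -4.48 ± 0.160, also with no overlap. These ratios were chosen after the values had been seen and are given as a description, with no test.

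The smooth muscle markers Des and Myh11 were lower on cholate beside these genes. The 6 smooth muscle markers summed to between 42.4 and 61.9 CPM in controls and between 8.17 and 13.5 CPM on cholate, nearly all of it Des and Myh11. Acta2, Tagln, Actg2 and Cnn1 had 19, 93, 31 and 16 counts over all libraries and were not tested. The means of Acta2 and Actg2 were not lower on cholate. Endothelial markers, 5 genes, summed to between 4.07 and 8.28 CPM and between 1.90 and 4.15 CPM. Their part in the Gstm7 and Gstm6l results was not tested.

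**Figure D4:**
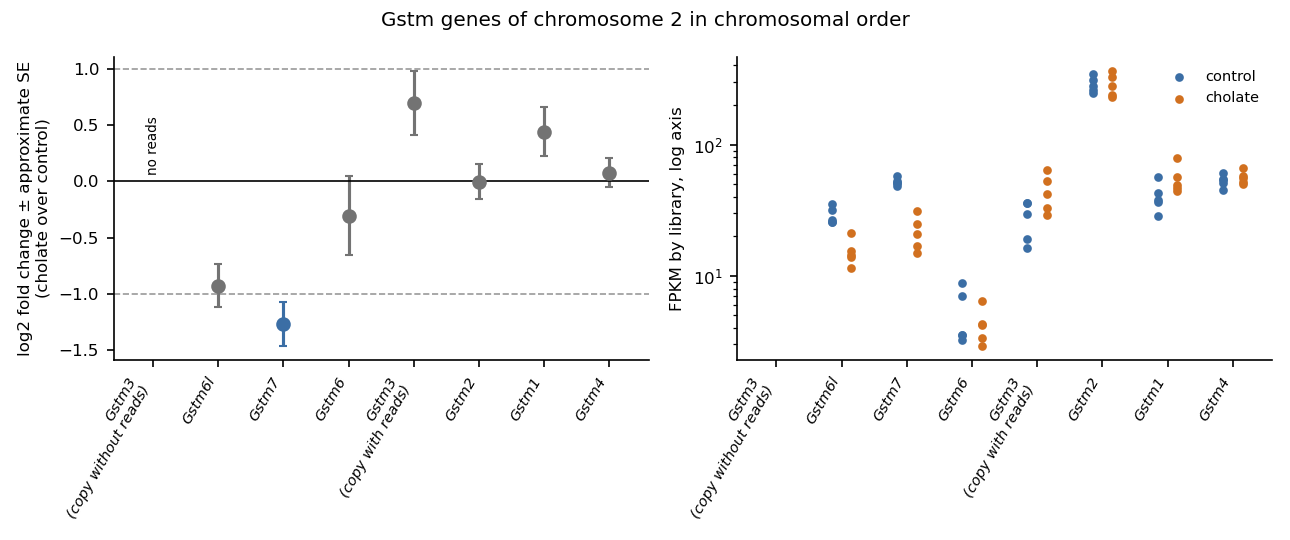
Members of the Gstm cluster on chromosome 2 in their order along the chromosome, with the log2 fold change and approximate SE on the left (dashed lines, fold of 2; blue, called lower) and FPKM in each library on a log axis on the right (blue, control; orange, cholate). Gstm6l at -0.93 and its neighbour Gstm7 at -1.27 are lowest, and Gstm2 is at a fold of 0.998.

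Of the abundant glutathione S-transferases, Gstp1 rose, and Mgst2 and Gsto1 had higher means on cholate without passing the test. Gstp1 (Entrez 24426, chromosome 1, 219291679 to 219294147, minus strand), the pi-class enzyme, was at 102.0, 106.9, 132.1, 106.9 and 185.0 CPM in controls and at 171.2, 191.8, 159.9, 345.2 and 243.9 CPM on cholate. It rose by a log2 fold change of 0.81 (SE 0.24, edgeR quasi-likelihood adjusted p = 0.0477), with control rat 9 above cholate rats 3 and 7. Leaving out 1 rat in turn put the adjusted p between 0.0137 and 0.119 and past 0.05 in 7 of 10 cases (control 1, 2, 5 or 6, or cholate 4, 8 or 11), and upper quartile scaling and a minimum of 5 CPM gave 0.0595 and 0.0540. Without rats 9, 8 and 11 the diets did not overlap, and the log2 fold change was 0.66 with an adjusted p of 0.0050.

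Mgst2 (Entrez 295037, chromosome 2, 140708396 to 140727381, plus strand) was at 175.7, 153.0, 177.5, 155.7 and 230.6 CPM in controls and at 183.9, 177.4, 187.8, 326.5 and 311.5 CPM on cholate. Rats 8 and 11 alone were far above the rest, and the log2 fold change of 0.41 (SE 0.21) did not pass the test (edgeR adjusted p = 0.223). Gsto1 (Entrez 114846, chromosome 1, 267607437 to 267617387, plus strand), an omega-class enzyme that reduces dehydroascorbate, was at 212.5, 180.4, 225.6, 209.5 and 280.2 CPM in controls. On cholate Gsto1 was at 266.2, 245.0, 238.9, 434.4 and 332.8 CPM. Rat 9 among controls and rats 8 and 11 on cholate were again the highest 3 of the 10, and the log2 fold change was 0.45 (SE 0.19, edgeR adjusted p = 0.133). In the 7 other libraries the log2 fold changes were 0.17 for Mgst2 and 0.30 for Gsto1, with adjusted p of 0.198 and 0.0549.

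The same libraries were high for most of the class. Control rat 9 was the highest control for 13 of 19 glutathione S-transferases, and cholate rats 8 and 11 were both above rats 3, 4 and 7 for 12 of 19. The same 3 libraries were the top 3 of 10 for Gstk1, Gsta5, Gsto1, Mgst2, Gstm2 and Gstm1. Of the 7 UDP-glucuronosyltransferases, control rat 9 was highest for 0 and lowest for 3. These libraries had high goblet cell marker sums. They were also the 3 shallowest, at 19883925, 18584910 and 14337356 counts against at least 25004778 in the others, with the 3 lowest TMM factors, 0.924, 0.860 and 0.919. The part of these cells, of depth and of library composition in the levels was not tested. Summed over the class, the glutathione S-transferases were at 1576, 1452, 1736, 1536 and 2151 FPKM in controls 1, 2, 5, 6 and 9 and at 1748, 1726, 1755, 2994 and 2414 FPKM in cholate rats 3, 4, 7, 8 and 11. The 3 libraries that stood apart had the 3 highest sums, and the other 7 lay between 1452 and 1755 FPKM with the diets overlapping.

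Other glutathione S-transferases did not pass the test. The microsomal Mgst3 was at 19.0 ± 1.67 CPM in controls and 29.0 ± 10.5 CPM on cholate (log2 fold change 0.61, edgeR adjusted p = 0.0867). Gstz1, which works in tyrosine breakdown, was at 14.8 ± 1.90 and 11.3 ± 0.902 CPM (log2 fold change -0.38, edgeR adjusted p = 0.103), with all cholate values below all controls. Mgst1, the alpha-class Gsta3, Gsta4 and Gsta5, the theta-class Gstt1 and Gstt3, and the mitochondrial Gstk1 had log2 fold changes from -0.30 to 0.75, with edgeR adjusted p from 0.189 to 0.942.

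The UDP-glucuronosyltransferases showed no change that passed the edgeR test. Of 7 tested, 0 were called and 0 had an adjusted p under 0.05, and 1, Ugt1a2, had an unadjusted p under 0.05. DESeq2 and limma-voom also called 0 under the limit on fold. The median log2 fold change was -0.27, and spread within a diet was wide, with a median coefficient of variation of 32.2% in controls and 51.8% on cholate against 21.7% and 28.9% over all genes tested. Summed over the class, the level was 466.2, 486.8, 349.9, 452.1 and 265.7 FPKM in controls and 282.6, 386.4, 529.6, 248.1 and 252.6 FPKM on cholate. The diets overlapped, with control rat 9 and cholate rats 8 and 11 at the low end and cholate rat 7 highest of all.

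Ugt2b10 (Entrez 305264, chromosome 14, 22806132 to 22826890, plus strand), a member of the 2B family, was at 459.5, 431.2, 304.0, 402.8 and 207.1 CPM in controls and at 152.3, 269.6, 468.9, 158.4 and 144.1 CPM on cholate. Cholate rats 3, 8 and 11 were below every control, but rat 7 was above every control. The log2 fold change was -0.60 (SE 0.35, edgeR adjusted p = 0.294). With 1 rat left out it ran from -0.99 to -0.45, with an edgeR adjusted p of 0.0469 without cholate rat 7 and of at least 0.1885 otherwise. Without control rat 9 and cholate rats 8 and 11 it was -0.40 (edgeR adjusted p = 0.377). Ugt1a6 (Entrez 113992, chromosome 9, 95241609 to 95302822, plus strand), which conjugates planar phenols, was at 202.3, 228.5, 195.6, 213.0 and 165.6 CPM in controls. On cholate Ugt1a6 was at 238.4, 239.0, 289.7, 177.2 and 189.0 CPM. Rats 3, 4 and 7 were above the controls and rats 8 and 11 among them, with a log2 fold change of 0.17 (SE 0.15, edgeR adjusted p = 0.496). In the 7 libraries without control rat 9 and cholate rats 8 and 11, Ugt1a6 had a log2 fold change of 0.31 (edgeR adjusted p = 0.05). Ugt2b10 made up 55.2% ± 4.58 of the summed FPKM of the class in controls and 41.7% ± 8.58 on cholate, and Ugt1a6 32.1% ± 4.88 and 43.6% ± 7.22 (SD, n = 5 each), given as a description with no test. Which of these genes had the larger share is uncertain, because the handling of reads in the shared Ugt1a exons is not known.

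Ugt1a2 had the highest log2 fold change of the class, 0.85 (SE 0.32, edgeR adjusted p = 0.101), from 8.52 ± 3.04 CPM in controls to 15.3 ± 6.60 CPM on cholate. Its adjusted p was 0.0456 in DESeq2, 0.0275 in limma-voom and 0.0447 in the 7 libraries, and from 0.0479 to 0.231 with 1 rat left out. Ugt1a1, the enzyme that conjugates bilirubin, was at 73.3 ± 26.6 and 60.5 ± 15.5 CPM (log2 fold change -0.27, edgeR adjusted p = 0.550). Ugt1a5, Ugt2b1 and Ugt1a3 were all under 1 CPM on average on both diets, with log2 fold changes from -0.58 to -0.10 and edgeR adjusted p from 0.530 to 0.897.

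**Figure D5:**
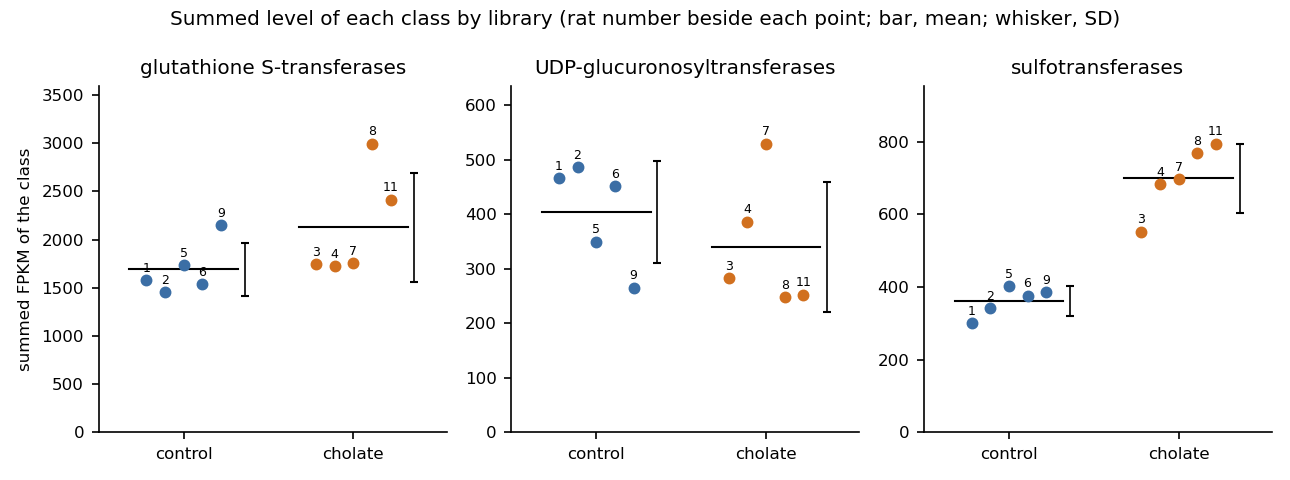
Summed FPKM of each enzyme class in each library, with 1 point per rat under its number, a bar at the mean of each diet and a whisker for the SD. The sulfotransferase sums do not overlap, at 300.7 to 402.8 FPKM in controls and 552.3 to 794.4 FPKM on cholate, and the other classes overlap.

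Genes that supply the donor molecules were examined beside the enzymes. Of 21 tested genes of glutathione supply and conjugate breakdown, 2 were called higher and 0 lower, against 1.10% and 2.12% of all genes tested. The median log2 fold change was 0.38 against -0.01 over all genes. This list also held the peroxidases Gpx1, Gpx2, Gpx4 and Gpx7, the leukotriene genes Ltc4s and Alox5ap, and the glyoxalases Glo1 and Hagh. Its count and median therefore do not describe glutathione supply alone. Called higher were Gss, glutathione synthetase, from 130.0 ± 27.0 to 287.9 ± 55.9 CPM (log2 fold change 1.15, SE 0.18, edgeR adjusted p = 0.0029), and Dpep1, a dipeptidase that cleaves glutathione conjugates further, from 20.5 ± 9.21 to 133.2 ± 81.6 CPM (log2 fold change 2.70, edgeR adjusted p = 0.0043). The diets did not overlap for either gene. Anpep of the same list fell from 17.0 ± 5.37 to 8.21 ± 2.79 CPM with overlap (log2 fold change -1.06, edgeR adjusted p = 0.0298). Gclc, the catalytic subunit of the rate-limiting enzyme of glutathione synthesis, was at 260.6 ± 44.6 and 221.3 ± 46.4 CPM (log2 fold change -0.24, edgeR adjusted p = 0.404).

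Ugdh, which makes UDP-glucuronic acid itself, was at 416.3 ± 64.8 and 321.5 ± 40.7 CPM (log2 fold change -0.37, edgeR adjusted p = 0.0910).

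Of 10 tested genes of PAPS supply and sulfate cleavage, 0 were called and the median was -0.23. Papss1, which makes PAPS, fell from 370.1 ± 25.4 to 215.5 ± 30.2 CPM (log2 fold change -0.78, edgeR adjusted p = 0.0029) with no overlap, while Sult2b1 and Sult1b1, which use PAPS, rose. Papss2, the other PAPS synthase, was at 114.5 ± 24.7 and 108.2 ± 29.4 CPM (edgeR adjusted p = 0.849).

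Of 9 tested genes of conjugate export 0 were called, and the pump with the smallest adjusted p, Abcc5, fell from 82.3 ± 12.7 to 59.1 ± 3.77 CPM (log2 fold change -0.48, edgeR adjusted p = 0.0307). Abcg2, the other pump under 0.05, rose from 44.8 ± 21.7 to 101.1 ± 33.8 CPM with overlap (log2 fold change 1.18, edgeR adjusted p = 0.0468). With 1 rat left out the adjusted p passed 0.05 in 7 of 10 cases for Abcc5 and in 8 of 10 for Abcg2. Of 22 tested regulators of these enzymes 0 were called, and the smallest adjusted p was that of the vitamin D receptor gene Vdr (log2 fold change -0.99, edgeR adjusted p = 0.0514). Nfe2l2, which encodes NRF2, was at 259.5 ± 25.8 and 242.5 ± 46.1 CPM (log2 fold change -0.10, edgeR adjusted p = 0.707). Of 13 tested target genes of NRF2 and the aryl hydrocarbon receptor, 6 rose and 1 fell at an adjusted p under 0.05, with a median of 0.61, against 6.48% and 7.28% of all genes. Within this list of targets of either regulator, Cyp1a1 and Cyp1b1 had 3 counts each and Tiparp had a log2 fold change of -0.12 (edgeR adjusted p = 0.894). Aldh3a1 was the gene that fell (log2 fold change -1.33, edgeR adjusted p = 0.0317), and Nqo1 was among the 6 that rose (log2 fold change 0.91, edgeR adjusted p = 0.0241). The called gene of the list was Hmox1, haem oxygenase, from 10.1 ± 2.73 to 51.8 ± 32.5 CPM (log2 fold change 2.35, edgeR adjusted p = 0.0085), and leaving out 1 rat in turn ended its call in 8 of 10 cases. The calls of Dpep1 and Gss ended in 5 and 3 of those cases.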

How the data were processed

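RNA sequencing of 10 libraries was used. Per the submitters' processing notes, reads were demultiplexed with bcl2fastq 1.8.4, mapped with BWA-MEM 0.7.12-r1039 to build rn6 and normalized with edgeR 3.16.2; the counting tool, and whether it used strand, were not given in the sources used here. The deposited table holds the authors' raw counts per gene, which every test used, and their normalized signal, used only as a check (median ratio to the CPM computed here 0.984 to 1.02). The deposited lengths are coding lengths in bases, so FPKM is per coding length and not per exon length as planned.

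In R 4.3.3 with edgeR 4.0.16, genes were filtered with filterByExpr, scaled by TMM and tested by the quasi-likelihood F test with diet as the only term, with Benjamini-Hochberg adjustment over 12385 genes. SE was approximated as the size of the log2 fold change divided by the root of F. limma 3.58.1 and DESeq2 1.42.0 served for alternatives. In simulated data for this comparison (12385 genes), the test found 71 of 100 genes given a log2 change of 1.5 and 92 of 100 given 2.5, with 0 false calls. The changed genes all had a mean of at least 5 CPM, and counts were drawn independently, without the leading axis of variation of the real libraries. These rates therefore do not cover members under 5 CPM or that axis. Floors cover counting error only.

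Members, lists, tests and the naming rule were chosen with earlier results of these data known. The rule gave values in every library for called members and for the 2 most abundant of each class, and named the called gene, or else that with the smallest adjusted p, of each list. Gstm6l, Sult1b1 as a near miss, Gstp1, Gstm2, Gclc, Ugdh, Papss2, Nfe2l2, Anpep and Nqo1 were singled out after their values were seen. Results of the UDP-glucuronic acid supply list other than Ugdh are not reported here. Protein sequences and their identity were not analysed here.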

Additional observations from a re-analysis of the deposited data

Results flagged for a closer look

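Within a diet, single libraries stood far from the other 4 for 5 of 60 combinations of member and diet, where chance alone gives about 1 in 20. Mgst3 was highest in cholate rat 8 at 46.95 CPM, with the next library at 27.3 CPM, and lowest among controls in rat 9 at 16.06 CPM, with the next at 19.2 CPM. Gstt3 was highest in cholate rat 8 at 73.74 CPM, with the next at 46.6 CPM. Gsta3 was highest among controls in rat 9 at 1.742 CPM, with the next at 0.465 CPM. Gsta5 was lowest on cholate in rat 7 at 9.424 CPM, with the next at 12.0 CPM. Rats 8 and 9 are among the 3 libraries that stood apart on the leading axis of variation.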

How the results depend on the processing

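Of all genes 398 were called, and of the members 1 higher (a sulfotransferase) and 1 lower (a glutathione S-transferase). With library size scaling alone 2 members were lower, 2 of them glutathione S-transferases. DESeq2 called 788 genes, with the same member counts. limma-voom with quality weights called 1150 genes and 2 members lower, 2 of them glutathione S-transferases. A test against a fold of 2 called 50 genes and 0 members in either direction, 0 in the glutathione S-transferase class and 0 in the sulfotransferase class. An adjusted p under 0.05 with no fold limit gave 1704 genes, 3 members higher and 2 lower, of which 3 were glutathione S-transferases and 2 sulfotransferases. The 7 libraries without control 9 and cholate 8 and 11, an alternative added after seeing the data, gave 840 genes and 2 members lower, 2 of them glutathione S-transferases. Leaving out 1 rat at a time gave 168 to 450 genes, 1 to 2 members higher and 0 to 2 lower, with 0 to 2 glutathione S-transferases and 1 to 2 sulfotransferases; the fewest genes were called without control rat 2. The cause of these shifts was not tested. The second lower member was Gstm6l wherever there were 2, and the second higher member when a rat was left out was Sult1b1. Upper quartile scaling, DESeq2 size factors, no filter and a minimum of 5 CPM kept every member count, and UDP-glucuronosyltransferase calls were 0 in every setting. No called member changed direction. No paired analysis was possible because the diets have no rat number in common.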
